A study of Mus musculus with 15 samples.

Results

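Hearts of the same group did not all look alike, and the data below describe how far each heart lay from the other hearts of its group and which genes varied together. All 15 arrays of the study were used, 5 in each of 3 groups. Of 41174 distinct probes, 22493 were well above background in the heart channel on all 15 arrays. The 21143 of these with an unflagged value on every array were tested, and they cover 12941 named genes when the brightest probe of each gene is kept. The measure is the standard deviation (SD) of the log2 ratio of heart to reference RNA within a group, which is the number of doublings by which a gene typically differed from the mean of its group. A gene that fell below background in any heart is not among the tested probes, so transcripts that were absent from some hearts are not described.

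The db/db mouse carries 2 copies of the db allele of the leptin receptor gene Lepr, becomes obese and insulin resistant, and is a model of type 2 diabetes. The nondiabetic group was db/+ (C57BL/KLS, leprdb over lepr+, heterozygous littermates), the untreated diabetic group was db/db on normal chow, and the treated diabetic group was db/db given rosiglitazone in its chow at 5 mg/kg/day for 4 months. Rosiglitazone is an insulin sensitizing drug that activates the nuclear receptor PPARγ. All 15 mice therefore carried at least 1 db allele, the db/+ controls were untreated, and neither age, sex nor time of day at harvest is given in the sources used here. Total RNA of each whole heart was labelled with Cy5 and hybridized against a Universal Mouse reference RNA labelled with Cy3, so each ratio also holds the measurement of the reference.

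A whole heart is a mixture. Contracting muscle cells supply most of its RNA, and vessels, the epicardial lining, blood and resident macrophages supply the rest, so that a change in the share of a cell type and a change in the RNA per cell cannot be told apart in these samples. Interferons are cytokines that switch on a large set of antiviral and antigen presenting genes, and this set can be high in 1 animal and low in its littermate. Immediate early genes and clock genes follow stimuli of minutes and the hour of the day. Hearts of animals kept alike can therefore differ in whole blocks of genes, and these blocks are described in turn after the size of the variation itself.

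The tissue label held on every array, since the heart myosin Myh6 was above the reference on each array, with log2 ratios from 3.07 to 6.37 over the 14 samples. The share of spots well above background ranged from 56.4% to 75.6% over the arrays. Arrays 3 and 4 of the treated group differed by a median of 0.0683 on the log2 scale, whereas the other pairs of treated arrays differed by 0.135 to 0.178, and the files do not say why. Their mean was counted as 1 sample, which leaves 4 treated samples. The samples of 1 slide mostly belong to 1 group: db/+ replicates 1 to 4 shared a slide, db/+ replicate 5 lay with untreated replicates 1 to 3, untreated replicates 4 and 5 lay with treated replicates 1 and 2, and treated replicates 3 to 5 shared the last slide. Slide and group are therefore largely confounded for db/+ hearts. Whether the replicates of a group came from separate litters or cages is not given.

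Treated db/db hearts were more alike than the hearts of either other group. The deviation of a heart from its group was measured as the root mean square over all 21143 probes, scaled for group size. It was 0.308, 0.303, 0.405, 0.257 and 0.270 in db/+ replicates 1 to 5. It was 0.261, 0.303, 0.286, 0.292 and 0.278 in untreated db/db replicates 1 to 5, and 0.221, 0.222, 0.229 and 0.216 in the treated samples (replicates 1, 2, 3 with 4, and 5). Every treated sample lay below every other heart. Db/+ replicate 3 lay above all others and was the farthest heart of its group in 40.7% of the probes, where the other db/+ hearts were the farthest in 11.4% to 19.7%.

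The mean deviation was 0.222 in the treated group (n = 4) against 0.284 in untreated db/db hearts (n = 5), a difference of -0.0620 log2 units. An exact two-sided permutation test gave p = 0.00794, the smallest p this design allows, and an adjusted p of 0.0238 over the 3 comparisons. Against the db/+ mean of 0.309 (n = 5) the treated group differed by -0.0869 (exact permutation p = 0.0238, adjusted p = 0.0357). Untreated db/db and db/+ hearts differed by -0.0248, which did not pass the test (exact permutation p = 0.484, adjusted p = 0.484). The 3 comparisons share groups and are not independent. Within a group each deviation is taken from a mean that the same hearts set. The values exchanged by the test are therefore not independent either, which its p-values do not allow for. After normexp background correction and loess in place of the deposited ratios, treated and untreated db/db hearts differed by -0.0204 (exact permutation p = 0.27), while untreated db/db and db/+ hearts differed by -0.264 (exact permutation p = 0.00794). In that setting db/+ replicates 1 to 4, which shared a slide, had deviations of 0.486 to 0.619. Db/+ replicate 5, on another slide, had 0.260, beside 0.199 to 0.235 in untreated hearts. Slide and group were not told apart here. The difference of treated db/db to db/+ hearts was -0.0500 (exact permutation p = 0.278) once the slope of the spike-in controls, described further on, was taken out, and that of untreated db/db to db/+ hearts had the other sign, 0.0272 (exact permutation p = 0.0714), without db/+ replicates 3 and 4.

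**Figure D1:**
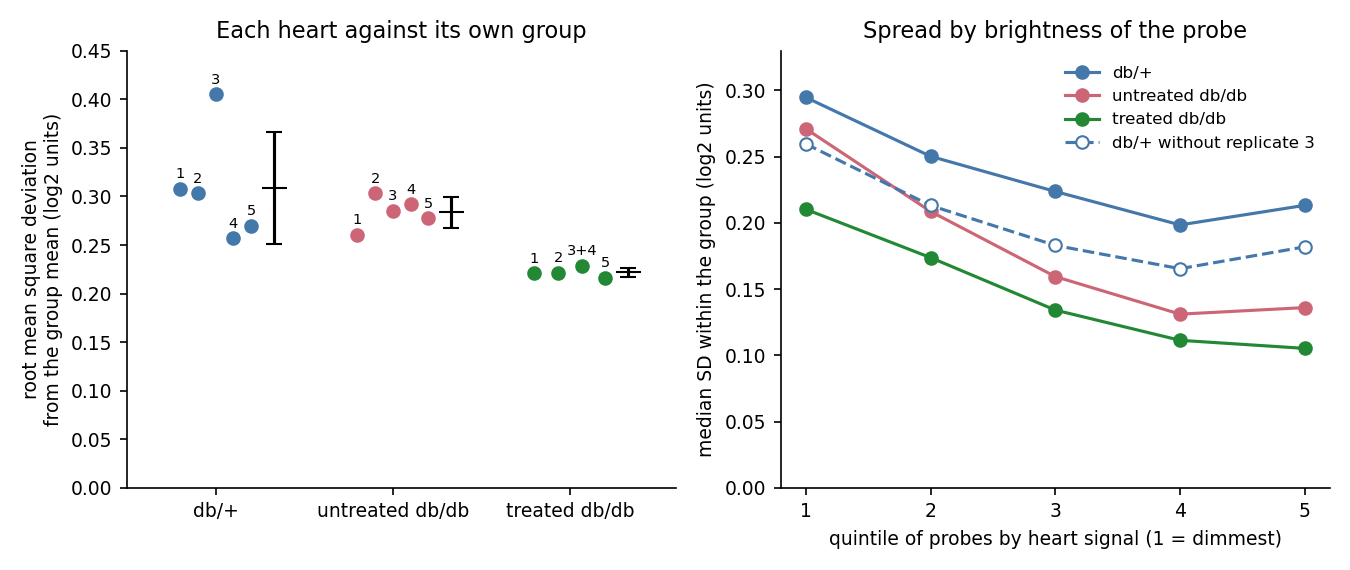
Left: root mean square deviation of each heart from its group mean over 21143 probes (log2 units, axis from 0), with the replicate number beside each point and the group mean and SD as a bar. Right: median SD within the group (log2 units) by quintile of heart signal, with db/+ also shown without replicate 3. The 4 treated samples sit between 0.216 and 0.229, below all other hearts, and the curve of treated db/db hearts lies lowest in every quintile.

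The median SD over probes had the same order. The median SD was 0.235 in db/+, 0.175 in untreated and 0.140 in treated db/db hearts, and the db/+ value was 0.197 without replicate 3. Without db/+ replicates 3 and 4 it was 0.154, below that of untreated hearts, and the median log2 ratio of SDs of untreated over db/+ hearts turned to 0.22. The SD of a probe was smaller in untreated db/db hearts than in the db/+ group by a median of -0.33 on the log2 scale, smaller in treated than in untreated db/db hearts by -0.34, and smaller in treated db/db hearts than in the db/+ group by -0.68. Part of the difference to the treated group comes from counting, because the median of an SD over 4 samples is lower than that over 5 (by -0.04 on the log2 scale for normally distributed values). The square root of the mean variance, which does not have this bias, was 0.313, 0.284 and 0.222. The tail of strongly variable probes had another order: an SD over 1 log2 unit was found for 68 probes in db/+, 129 in untreated and 57 in treated db/db hearts.

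Dim probes had larger SDs than bright ones. In the dimmest quintile of probes the median SD was 0.295 in db/+, 0.271 in untreated and 0.210 in treated db/db hearts, and in the brightest it was 0.213, 0.136 and 0.105. The untreated and db/+ groups were thus closest among dim probes, with a median log2 ratio of SDs of -0.08, and farthest apart among bright ones, with -0.54. The reference channel held the same RNA on every array. Its median SD was 0.111 in db/+, 0.112 in untreated and 0.0815 in treated db/db samples. The treated value was taken over 4 samples with arrays 3 and 4 averaged, and both lower it. The treated samples thus had the smallest spread in the reference RNA as well, in part by construction. The share of this in the difference between hearts was not tested. The extraction software's own error of a ratio had a median of 0.226 to 0.227 in all groups, and the SD between hearts exceeded it for 46.1% of probes in db/+, 28.9% in untreated and 18.0% in treated db/db hearts.

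Single genes were tested by a limma fit on the absolute deviations of all 14 samples. Between untreated db/db and db/+ hearts, 43 of 21143 probes had a larger spread in untreated hearts (0.203%) and 347 had a smaller one (1.64%) at an adjusted p under 0.05. Between treated db/db and db/+ hearts, 3 probes had a larger spread (0.0142%) and 95 a smaller one (0.449%). No probe passed between treated and untreated db/db hearts (0%), with 1620 at an unadjusted p under 0.05 by the same limma fit and a smallest adjusted p of 0.408. The calls depended on single hearts. Of the 390 calls between untreated db/db and db/+ hearts, 5 remained without db/+ replicate 3, 12 without db/+ replicate 4, 68 to 122 without any 1 untreated heart and at most 144 without treated replicate 1, 2 or 5. Of the 98 calls between treated db/db and db/+ hearts, 4 and 5 remained without db/+ replicate 3 or 4, 2 to 14 without any 1 untreated heart, 26 without treated array 4 and 0 without treated replicate 1, 2 or 5. No probe was called when deviations were taken from the group median in place of the mean.

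Most of the smaller spreads have 1 shape. In 314 of the 347 probes with a smaller spread in untreated db/db hearts (90.5%), db/+ replicates 3 and 4 lay on 1 side of the db/+ mean and replicates 1, 2 and 5 on the other, with the pair higher in 175. Over all 21143 probes this division was found in 33.3%, whereas any other pair of db/+ hearts was set apart in 3.86% to 10.1%. The 347 probes were called for their spread in these same db/+ values, and a test on absolute deviations favours such an even division. Their 90.5% is therefore a description of the calls and no test of the division. Replicates 3 and 4 differed from each other by a median of 0.190, while replicate 3 differed from replicates 1, 2 and 5 by 0.339 to 0.364. Since replicates 1 to 4 shared a slide, the division runs within a slide.

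Ube3a, a ubiquitin ligase, is the plainest case. Its log2 ratio was 0.58, 0.57, 1.66, 1.55 and 0.75 in db/+ replicates 1 to 5, between 0.70 and 0.79 in the 5 untreated db/db hearts, and between 0.68 and 0.99 in the treated samples. Its SD was thus 0.54 in db/+ against 0.04 in untreated db/db hearts (adjusted p = 0.0207 by the limma fit). Notch3, the Notch receptor of vascular smooth muscle, ran the other way, with 1.64, 1.51, 0.14, 0.73 and 1.60 in db/+ replicates 1 to 5 and 1.5 to 1.58 in untreated hearts (adjusted p = 0.0272). Both genes were nearly constant in untreated db/db hearts, at the level of db/+ replicates 1, 2 and 5.

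The same division set the calls of several structural and motor genes. Dync1h1, the heavy chain of cytoplasmic dynein, had -0.67 and -0.42 in db/+ replicates 3 and 4 and 0.36 to 0.69 in the other 3, with an SD of 0.05 in treated hearts (adjusted p = 0.0365, treated against db/+). Vcl, the adhesion protein vinculin, had -0.90 and -0.65 against -0.0048 to 0.24, with an SD of 0.03 in treated hearts (adjusted p = 0.0476). Gng11, a G protein subunit, lay the other way, with 3.09 and 2.83 against 2.19 to 2.31, and was almost constant in treated hearts, from 1.87 to 1.89 (adjusted p = 0.0476). Other called genes with this shape were Cops2, Yme1l1, Eps15l1, Tle2, Gtf3c2, Secisbp2 and Rps3a1.

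The mean of the ribosomal protein genes was divided in the same way. The mean deviation of the 75 measured cytosolic ribosomal proteins was -0.19, -0.19, 0.36, 0.27 and -0.25 in db/+ replicates 1 to 5. Rps29, a small subunit protein, had log2 ratios of 0.16, 0.05, 1.66, 1.35 and 0.44 in these hearts and 0.09 to 0.61 in untreated db/db hearts. The median SD of the class was 0.326 in db/+, 0.252 in untreated and 0.144 in treated db/db hearts, beside 0.224, 0.162 and 0.127 over all genes. Rpl36a passed the test with a smaller spread in untreated than in db/+ hearts (1 of 75, beside 1.64% of all probes), and Rpl36a and Rps3a1 did so in treated hearts (2 of 75, beside 0.449%). The cytosolic chaperone Hsp90aa1 was also highest in these 2 hearts, at -0.40 and -0.69 against -2.0 to -1.18 in db/+ replicates 1, 2 and 5.

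The 43 probes with a larger spread in untreated db/db hearts included Atf3, a stress induced transcription factor. Its log2 ratio was -1.43 to -1.03 in db/+ hearts, and 0.63, -1.0, -1.58, -1.20 and 0.48 in untreated replicates 1 to 5. Untreated replicates 1 and 5 stood apart from the other 3, and the treated samples lay between -1.62 and -0.97 (adjusted p = 0.024, untreated against db/+). Dusp4, a phosphatase that turns off MAP kinases, was -1.63 to -1.43 in db/+ hearts and 0.10, 0.06, -1.94, -1.31 and -0.60 in untreated replicates 1 to 5 (adjusted p = 0.0408). Cry1, a repressor of the circadian clock, was -1.07 to -0.90 in db/+ and -0.42 to 0.45 in untreated hearts (adjusted p = 0.0375). After normexp correction and loess the difference in the absolute deviation of Cry1 turned to -0.0641. For each of these genes the treated samples spanned a smaller range than the untreated hearts.

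Immediate early genes, which respond to stimuli within minutes, varied more than the median gene. Of the 25 measured, 1 passed the test (Atf3), where 0.203% of all probes had a larger spread in untreated hearts. Their median SD was 0.270 in db/+, 0.316 in untreated and 0.217 in treated db/db hearts, beside 0.224, 0.162 and 0.127 over all genes. Egr1 was -2.79 and -2.67 in untreated replicates 1 and 5 and -4.47 to -3.85 in the other 3. Nr4a2, an orphan nuclear receptor, was 0.97 in untreated replicate 5 alone and -1.26 to -0.95 in replicates 1 to 4. The mean of the class was highest in replicate 5, at 0.43 above the untreated mean.

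Clock genes varied in all 3 groups. The median SD of the 19 measured was 0.312, 0.387 and 0.354 in db/+, untreated and treated db/db hearts, beside 0.224, 0.162 and 0.127 over all genes. Arntl, which drives the clock, was 1.27, 0.56, -0.87 and 0.89 in the treated samples, and Ciart, a repressor within it, was -1.68, -0.03, 0.86 and 0.53. The sample with the highest Ciart thus had the lowest Arntl. The time of day at which each heart was taken is not given in the sources used here.

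To find genes that vary together, the 500 genes with the largest SD pooled over the groups were clustered on their deviations. They hold 28.4% of the variance within groups of all 12941 genes, and 339 of them fell into 9 clusters of 10 genes or more. Because the genes were picked and grouped by these deviations, the clusters are a description, and their spread was not tested. The tests given for them below concern their relation to measures of the same arrays. These measures were not used to pick or group genes, but they come from the scans that gave the ratios. The p-values of these relations are therefore not independent of how the clusters were formed. Only 270 of the 500 (54.0%) had a reference signal well above background on all 15 arrays, against 96.0% of all genes, so that a dim reference goes with a large SD.

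**Figure D2:**
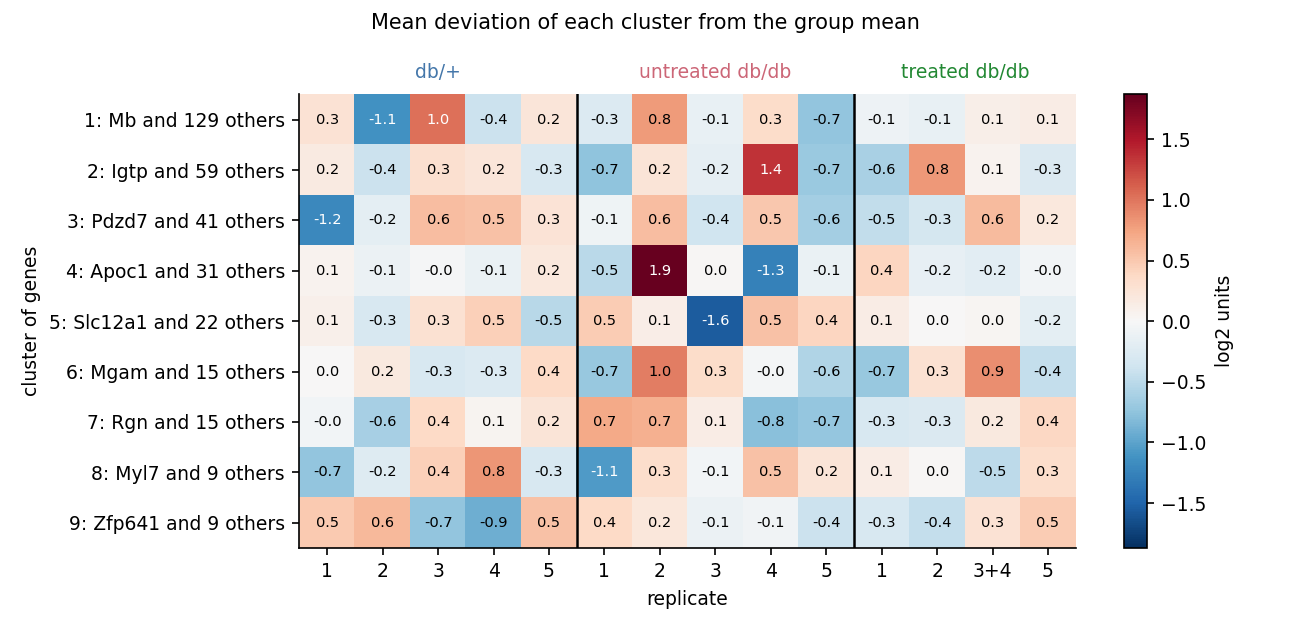
Mean deviation of each cluster of genes from the group mean (log2 units, colour and number), in 14 samples ordered by group. Rows are clusters named by their most variable gene and columns are replicates. The largest values are single hearts: 1.87 for the Apoc1 cluster in untreated replicate 2, -1.55 for the Slc12a1 cluster in untreated replicate 3 and 1.36 for the Igtp cluster in untreated replicate 4.

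The most variable gene of all was Igtp, an interferon-inducible GTPase that acts on vacuoles of intracellular pathogens, and it led a cluster of 60 genes. The cluster holds 17 of the 35 measured interferon-induced genes, among them the GTPases Iigp1, Irgm2, Irgm1 and Tgtp1, the guanylate binding proteins Gbp2, Gbp3, Gbp4 and Gbp6, the chemokine Cxcl10 and the peptide transporter Tap1. Promoters of this cluster follow here because a short sequence recurs in part of them, in 18 of the 47 genes with a promoter sequence. Only promoters that hold it are printed. Each is the window from 250 bases before to 50 after the transcript start in RefSeq, build GRCm38.p6, 5′ to 3′ on the strand of the gene. Capitals mark matches to GAAA, any 2 bases and GAAA again, or to its reverse complement, the core of the interferon-stimulated response element.
Igtp promoter (chr11:58199306-58199605, + strand): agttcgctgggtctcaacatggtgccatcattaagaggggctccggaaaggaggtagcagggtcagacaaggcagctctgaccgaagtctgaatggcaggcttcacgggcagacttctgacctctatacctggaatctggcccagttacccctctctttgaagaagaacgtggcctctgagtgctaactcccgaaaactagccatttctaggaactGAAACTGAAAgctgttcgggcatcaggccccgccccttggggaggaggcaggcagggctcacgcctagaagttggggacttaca
Irgm2 promoter (chr11:58214727-58215026, + strand): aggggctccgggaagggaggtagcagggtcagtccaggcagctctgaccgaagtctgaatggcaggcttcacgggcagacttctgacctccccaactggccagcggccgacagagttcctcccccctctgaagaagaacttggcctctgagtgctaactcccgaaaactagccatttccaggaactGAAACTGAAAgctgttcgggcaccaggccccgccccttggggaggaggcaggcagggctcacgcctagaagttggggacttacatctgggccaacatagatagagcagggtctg
Irgm1 promoter (chr11:48871371-48871670, - strand): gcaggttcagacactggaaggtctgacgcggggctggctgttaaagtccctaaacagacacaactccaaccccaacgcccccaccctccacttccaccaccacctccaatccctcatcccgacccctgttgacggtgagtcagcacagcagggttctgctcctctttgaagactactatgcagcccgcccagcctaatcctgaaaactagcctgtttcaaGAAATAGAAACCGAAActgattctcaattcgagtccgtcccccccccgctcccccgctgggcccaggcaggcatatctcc
Rnase6 promoter (chr14:51128814-51129113, + strand): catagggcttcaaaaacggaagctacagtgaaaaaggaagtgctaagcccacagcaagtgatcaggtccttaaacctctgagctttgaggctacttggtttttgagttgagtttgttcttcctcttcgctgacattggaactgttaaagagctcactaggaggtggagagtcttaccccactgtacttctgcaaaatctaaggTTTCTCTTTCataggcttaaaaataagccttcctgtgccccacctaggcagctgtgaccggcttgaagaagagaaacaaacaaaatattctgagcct

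Igtp and Irgm2 have 1 match each, Irgm1 has overlapping matches to the GAAA repeat, and Rnase6, a ribonuclease of macrophages, has 1 on the other strand. Of the 60 genes 47 have a window in the table, and 18 of these (38.3%) hold the GAAA repeat, against 1079 of 27025 genes (3.99%). In the cluster led by Mb, 6.59% of genes with a window hold the GAAA repeat. A match in such a window is a description of the letters and no evidence of binding.

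The interferon-induced genes were high in single hearts. Igtp had log2 ratios of 2.64, 1.32, 2.06, 2.26 and 1.54 in db/+ replicates 1 to 5, and 0.50, 2.12, 1.24, 6.35 and 0.59 in untreated replicates 1 to 5. In the treated samples it was 0.05, 3.79, 1.30 and 2.50. Untreated replicate 4 was thus far above every other untreated heart, and treated replicate 2 was the highest treated sample. Irgm2 gave 1.5, 2.83, 2.23, 5.48 and 1.74 in the untreated hearts and 1.12, 3.83, 2.37 and 2.71 in the treated samples, and it stayed within 2.42 to 3.34 in db/+ hearts. Serpina3g, a serine protease inhibitor of activated lymphoid cells, was 2.20 in untreated replicate 4 and 1.09 in replicate 2, beside -1.40 to -0.35 in the other 3.

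Over all 35 measured interferon-induced genes the median SD was 0.304 in db/+, 0.750 in untreated and 0.398 in treated db/db hearts. Their mean stood 1.2 above the group in untreated replicate 4 and 0.62 above it in treated replicate 2, and 0.58, 0.49 and 0.50 below it in untreated replicates 1 and 5 and treated replicate 1. Without replicate 4 the SD of this mean in untreated hearts was 0.323 in place of 0.728, still above the 0.152 of the db/+ hearts. Of the 35 members 1, Ifi44, passed the test (beside 0.203% of all probes) with a larger spread in untreated than in db/+ hearts, at -1.69 to -0.23 against 0.14 to 0.42 (adjusted p = 0.0421). The median SD was 0.713 in untreated hearts after normexp correction and loess and 0.750 in the heart channel alone, without the reference. With the spike-in slope, described further on, taken out, it was 0.385 in db/+, 0.561 in untreated and 0.351 in treated db/db hearts.

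Antigen presenting genes split between this cluster and another. H2-DMb1 and H2-DMa, which load peptides on class II molecules, and the invariant chain Cd74 belonged to the Igtp cluster, whereas H2-Ea, H2-Eb1, H2-Aa and H2-Ab1, which encode the presenting chains, belonged to that led by Mb. H2-DMb1 was -0.82, 0.63, -0.34, 2.13 and -0.76 in untreated replicates 1 to 5, and 1.05 to 1.79 in db/+ hearts. Psmb8, a subunit of the immunoproteasome, was 1.11 in untreated replicate 4 and at most -0.16 in the other untreated hearts. Proteasome subunits as a class varied little, since the median SD of the 35 measured, Psmb8 among them, was 0.177, 0.145 and 0.0940. The 7 measured class II genes had a median SD of 0.491 in db/+, 0.865 in untreated and 0.602 in treated db/db hearts. With the spike-in slope of the arrays, described further on, taken out of the log ratios, these values were 0.50, 0.486 and 0.471, so that the class was no longer widest in untreated hearts, and its mean followed that slope with r = 0.713 over the 14 samples. None passed the test.

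Markers of macrophages lay on the same side of the group mean as these genes in untreated replicates 1, 2, 4 and 5. The mean of the 22 measured myeloid genes was 0.45 above the group in untreated replicate 4 and 0.45 and 0.50 below it in untreated replicates 1 and 5. In untreated replicate 3 it was 0.22 above the group, while the means were -0.27 for interferon-induced and -0.34 for class II genes. Their median SD was 0.376, 0.528 and 0.276. The order of db/+ and untreated hearts turned after normexp correction and loess, with 0.567 and 0.428, and the values were 0.320 and 0.334 with the spike-in slope taken out, which the mean of the class followed with r = 0.751. Of the 22, Ms4a7, a membrane protein of macrophages, passed the test with a larger spread in untreated than in db/+ hearts (adjusted p = 0.0475), where 0.203% of all probes did. The part of myeloid cells in the interferon values was not tested. S100a8, a calcium binding protein of neutrophil granules, was 2.73 in treated replicate 2, the highest treated sample for Igtp as well, and -0.70 to 0.21 in the other treated samples, and 0.67, 1.11, 0.27, -1.19 and -0.53 in untreated replicates 1 to 5.

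**Figure D3:**
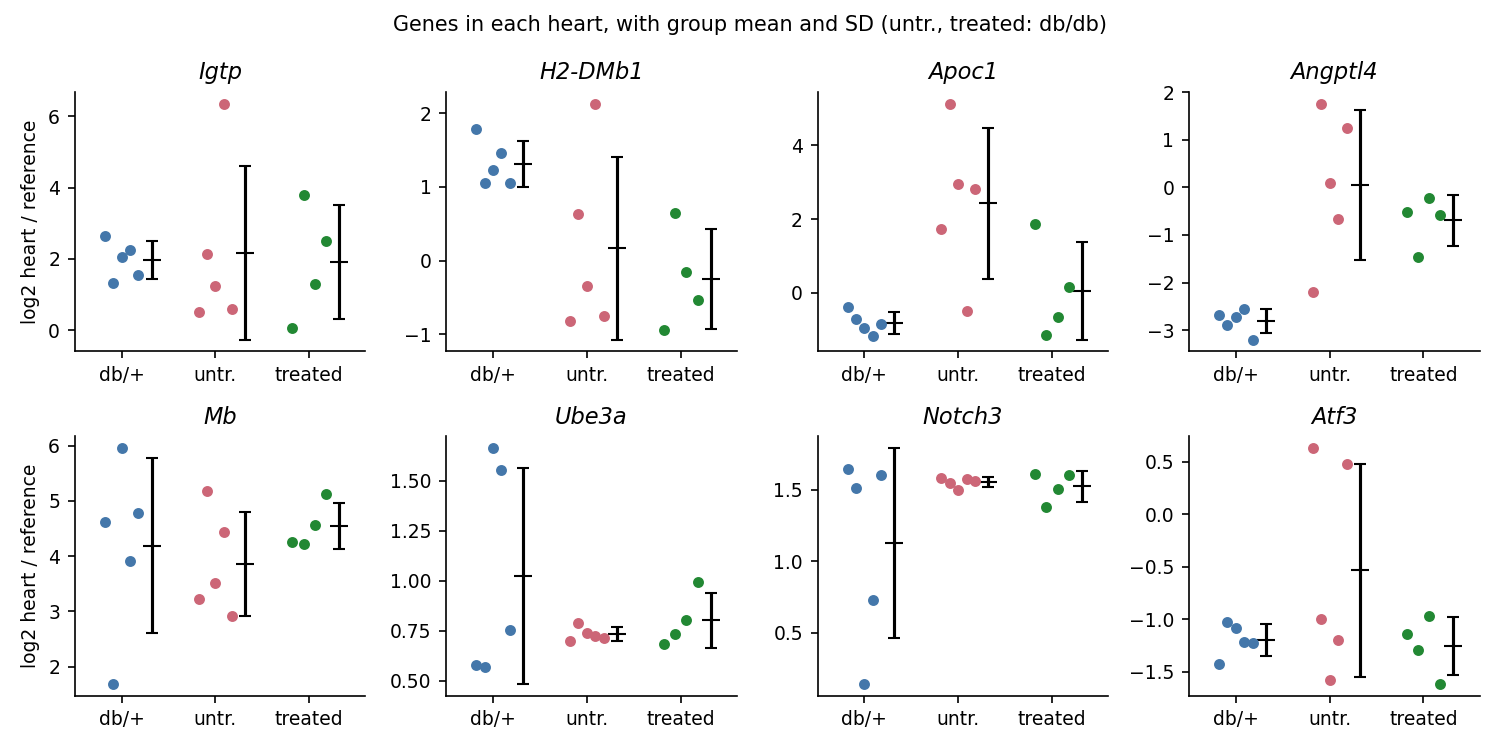
Log2 ratio of heart to reference for 8 genes in each of 14 samples, grouped as db/+, untreated db/db and treated db/db, with the group mean and SD as a bar. Igtp and H2-DMb1 are highest in 1 untreated heart, Apoc1 and Angptl4 are spread over the untreated group, Mb is widest in db/+, Ube3a and Notch3 are nearly constant in untreated hearts, and Atf3 is high in 2 untreated hearts.

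Apoc1 had the largest SD in untreated hearts after Igtp and led a cluster of 32 genes. Apoc1 is an apolipoprotein, Rbp4 carries retinol in blood, Azgp1 is a secreted glycoprotein and Cyp2d26 is a cytochrome P450. The cluster also holds Serpina1b, Hp, Mup4, Tat, G6pc and the hormone Fgf21, and 4 of the 7 measured hepatocyte markers of a list of 26 (23 on the array, of which 7 passed the filters). Apoc1 was -1.18 to -0.39 in db/+ hearts, and 1.73, 5.13, 2.96, -0.50 and 2.83 in untreated replicates 1 to 5. In the treated samples it was 1.86, -1.16, -0.67 and 0.17. Untreated replicate 2 was highest and untreated replicate 4 was the only untreated heart in the range of db/+.

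Untreated replicate 2 was highest and replicate 4 lowest in Rbp4, Azgp1 and Cyp2d26 of this cluster as well. Rbp4 was -0.86, 2.77, 0.42, -2.26 and 0.51 in untreated replicates 1 to 5, Azgp1 was 1.41, 5.38, 3.27, 0.34 and 2.80, and Cyp2d26 was 0.52, 4.86, 2.70, 0.29 and 2.45. In each, treated replicate 1 was the highest treated sample, at -0.90, 2.0 and 1.44. Hp, the hemoglobin scavenger haptoglobin, differed in that untreated replicate 1 was lowest and replicate 4 was not at the db/+ level. It was -0.23, 2.74, 1.56, 0.95 and 1.24 in untreated replicates 1 to 5, against -2.50 to -1.88 in db/+ hearts. The median SD of the 7 hepatocyte markers was 0.276 in db/+, 1.07 in untreated and 0.453 in treated db/db hearts, and none passed the test at an adjusted p under 0.05. After normexp correction and loess these values were 0.837, 1.04 and 0.271, so that db/+ and untreated hearts lay closer. Without untreated replicate 2 the SD of the mean of the markers in untreated hearts was 0.696 in place of 1.14. Fgf21 of the same cluster passed the test, with a larger spread in untreated than in db/+ hearts (adjusted p = 0.0452). The difference in its absolute deviation turned to -0.25 after normexp correction and loess. The heart with the most interferon-induced RNA was therefore the untreated heart with the least of Apoc1, Rbp4, Azgp1 and Cyp2d26.

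Angptl4, a lipase inhibitor induced by fatty acids through PPAR receptors, was spread as widely without belonging to a cluster. It was -3.20 to -2.56 in db/+ hearts, -2.20, 1.76, 0.09, -0.66 and 1.24 in untreated replicates 1 to 5, and -1.46 to -0.21 in the treated samples. Its SD was 0.25 in db/+, 1.57 in untreated and 0.53 in treated db/db hearts. The 26 measured PPAR target and fatty acid oxidation genes as a class did not share a spread of this size, with a median SD of 0.334, 0.284 and 0.125. Their median log2 ratio of SDs of untreated over db/+ hearts was 0.10, against -0.34 over all genes. Rgn, a calcium binding protein of liver and kidney, passed the test with a larger spread in untreated hearts (adjusted p = 0.0344) and led a cluster of 16 genes whose mean was 0.70 and 0.67 in untreated replicates 1 and 2 and -0.78 and -0.72 in replicates 4 and 5. Only 1 of these 16 genes had a reference well above background on all arrays.

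The largest cluster, of 130 genes, consists of genes far above the reference. All 130 had more signal in heart than in reference RNA, with a median log2 ratio of 5.45 against 0.00 over all genes. Of the 130 genes, 71 had a reference well above background on all arrays. It is led by Mb, the oxygen store myoglobin, and holds the sarcomere genes Tcap, Tpm1, Myom2 and Myh6, the calcium store protein Hrc, the glucose transporter Slc2a4 and the endothelial receptor Kdr. Mb was 4.61, 1.69, 5.96, 3.91 and 4.78 in db/+ replicates 1 to 5, and 3.23, 5.18, 3.51, 4.44 and 2.91 in untreated replicates 1 to 5. In the treated samples it was 4.26, 4.22, 4.57 and 5.13. Db/+ replicate 2 was lowest and replicate 3 highest, and its SD was 1.58, 0.94 and 0.42 in db/+, untreated and treated db/db hearts.

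Other genes of the cluster had the same lowest and highest db/+ hearts. Myh6 was 5.79, 3.07, 6.37, 4.88 and 6.09 in db/+ replicates 1 to 5, Slc2a4 was 6.64, 4.37, 7.73, 6.62 and 7.29, and Kdr was 6.93, 4.39, 7.29, 5.82 and 6.52. The median SD of the 12 measured ventricular genes was 0.733, 0.619 and 0.237, and that of the 70 measured oxidative phosphorylation subunits was 0.430, 0.194 and 0.136. In the heart channel alone they were 0.330, 0.304 and 0.196 for the ventricular genes and 0.194, 0.155 and 0.102 for the subunits. No member of either list passed the test. The mean of the oxidative phosphorylation genes was -0.57 in db/+ replicate 2 and -0.06 to 0.30 in the other db/+ hearts, and without replicate 2 the SD of this mean in db/+ hearts was 0.152 in place of 0.345.

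A property of the arrays moved with the Mb cluster. Control RNAs were added to both samples of an array at known ratios, and the slope of their measured on their expected log ratio was 0.769 in db/+ replicate 2, 0.847 in untreated replicate 5, 0.857 in untreated replicate 1 and 0.903 to 0.956 on the other arrays. A slope under 1 means that ratios were compressed. Over the 14 samples, as deviations from the group means, the mean of the cluster followed the slope with Pearson's r = 0.888 (permutation p = 0.00023, adjusted p = 0.00499) and Spearman's rho = 0.877 (permutation p = 0.00108, adjusted p = 0.0147), adjusted over 27 relations. Without the 2 samples farthest from the median slope, db/+ replicate 2 and untreated replicate 5, r was 0.788. It also followed the log2 dye normalization factor of the heart channel (r = 0.887, permutation p = 0.00056, adjusted p = 0.00504; rho = 0.890, permutation p = 0.00109, adjusted p = 0.0147; r = 0.832 without the 2 farthest samples). Its relation to the share of spots well above background was inverse, with r = -0.917 (permutation p = 0.00037, adjusted p = 0.00499). For that share Spearman's rho was -0.881 (permutation p = 0.00178, adjusted p = 0.016), and r was -0.858 without the 2 farthest samples. The slides hold too few arrays for a value within each.

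The share of the cluster's variance on the slope was 60.8%, against 17.5% over all genes. In the heart channel alone, quantile normalized without the reference, its median SD was 0.301, 0.294 and 0.190 in db/+, untreated and treated db/db hearts, in place of 0.843, 0.668 and 0.256. With the slope taken out of the log ratios it was 0.454, 0.390 and 0.316. After normexp correction and loess it was 1.18, 0.421 and 0.308, so that the db/+ value was larger than as deposited. The Igtp cluster held its median SD in the heart channel alone, at 0.439, 0.855 and 0.628 beside 0.435, 0.826 and 0.639, while the Apoc1 cluster in untreated hearts had 0.905 beside 1.16. With the slope taken out the Igtp cluster had 0.503, 0.666 and 0.580, and the Apoc1 cluster had 1.13 in untreated hearts. After normexp correction and loess the Apoc1 cluster had 0.684 in untreated hearts, and without untreated replicate 2 the SD of its mean was 0.579 in place of 1.16. The Igtp cluster followed the slope more weakly (r = 0.548, permutation p = 0.00538, adjusted p = 0.0363; rho = 0.727, permutation p = 0.00502, adjusted p = 0.0339; r = 0.563 without the 2 farthest samples). The Apoc1 cluster had r = 0.197 with the slope (permutation p = 0.546, adjusted p = 0.783; rho = 0.319, permutation p = 0.267, adjusted p = 0.544; r = 0.267 without the 2 farthest samples).

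**Figure D4:**
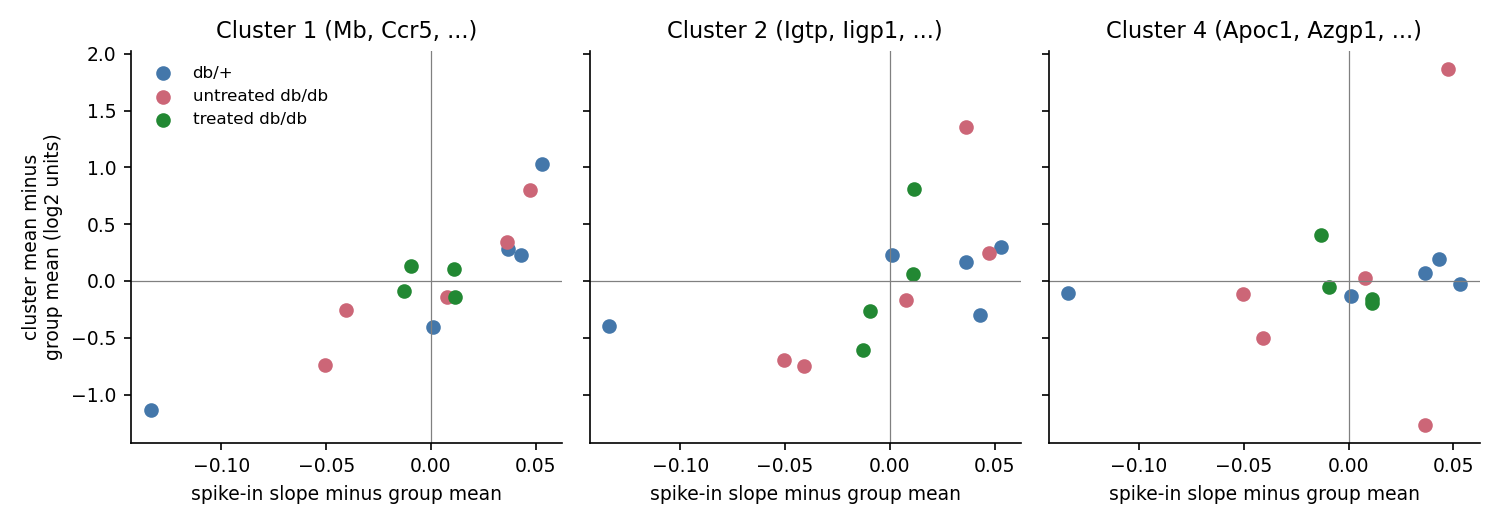
Mean deviation of 3 clusters from the group mean (log2 units) against the deviation of the spike-in slope of the array from its group mean, 1 point a sample in 3 groups. The points of the Mb cluster rise along the slope (r = 0.888), those of the Igtp cluster do so less (r = 0.548), and the extremes of the Apoc1 cluster both have a slope above the group mean.

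A cluster of 16 genes holds Gp9, Ppbp, Treml1, Clec1b and P2ry12, 5 genes known from platelets that were picked after the cluster was seen, with Mgam and Tnfaip6, and its mean was 0.96 in untreated replicate 2 and 0.87 in treated replicates 3 with 4, and -0.70 and -0.71 in untreated replicate 1 and treated replicate 1. Ackr2, a scavenging chemokine receptor of this cluster, passed with a larger spread in untreated than in db/+ hearts (adjusted p = 0.0477), and the difference in its absolute deviation turned to -0.32 after normexp correction and loess. Ppbp, the platelet basic protein, was 2.10, 2.90, 4.11 and 1.59 in the treated samples and 2.74 to 3.78 in db/+ hearts. A cluster of 10 genes joins Myl7, the atrial myosin light chain, with Upk3b and Gpm6a, 2 of the 10 measured epicardial genes, while the atrial genes Nppa, Kcnj3 and Clu were in the Mb cluster. Myl7 was 1.89, 2.59, 3.64, 4.23 and 2.80 in db/+ replicates 1 to 5, 1.29 in untreated replicate 1 and 2.88 to 4.02 in the other untreated hearts, and Upk3b was lowest in the same 2 hearts, db/+ replicate 1 and untreated replicate 1, at -2.49 and -2.87.

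The remaining clusters are less easily named. One of 42 genes, all dimmer than the median gene, was -1.20 in db/+ replicate 1. One of 23 genes led by Slc12a1, a kidney cotransporter, was -1.55 in untreated replicate 3 and 0.13 to 0.55 in the other untreated hearts, and 11 of its genes had a reference well above background on all arrays. One of 10 genes, mostly RIKEN transcripts, was -0.74 and -0.91 in db/+ replicates 3 and 4 and 0.48 to 0.61 in the other 3, and 9530091C08Rik, 3110080O07Rik and 9630010G10Rik of it passed with a smaller spread in untreated than in db/+ hearts. Without db/+ replicates 3 and 4 the differences of these 3 genes had the other sign. A dimmer probe of 9530091C08Rik had SDs of 0.129 in db/+, 0.129 in untreated and 0.169 in treated db/db hearts.

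**Figure D5:**
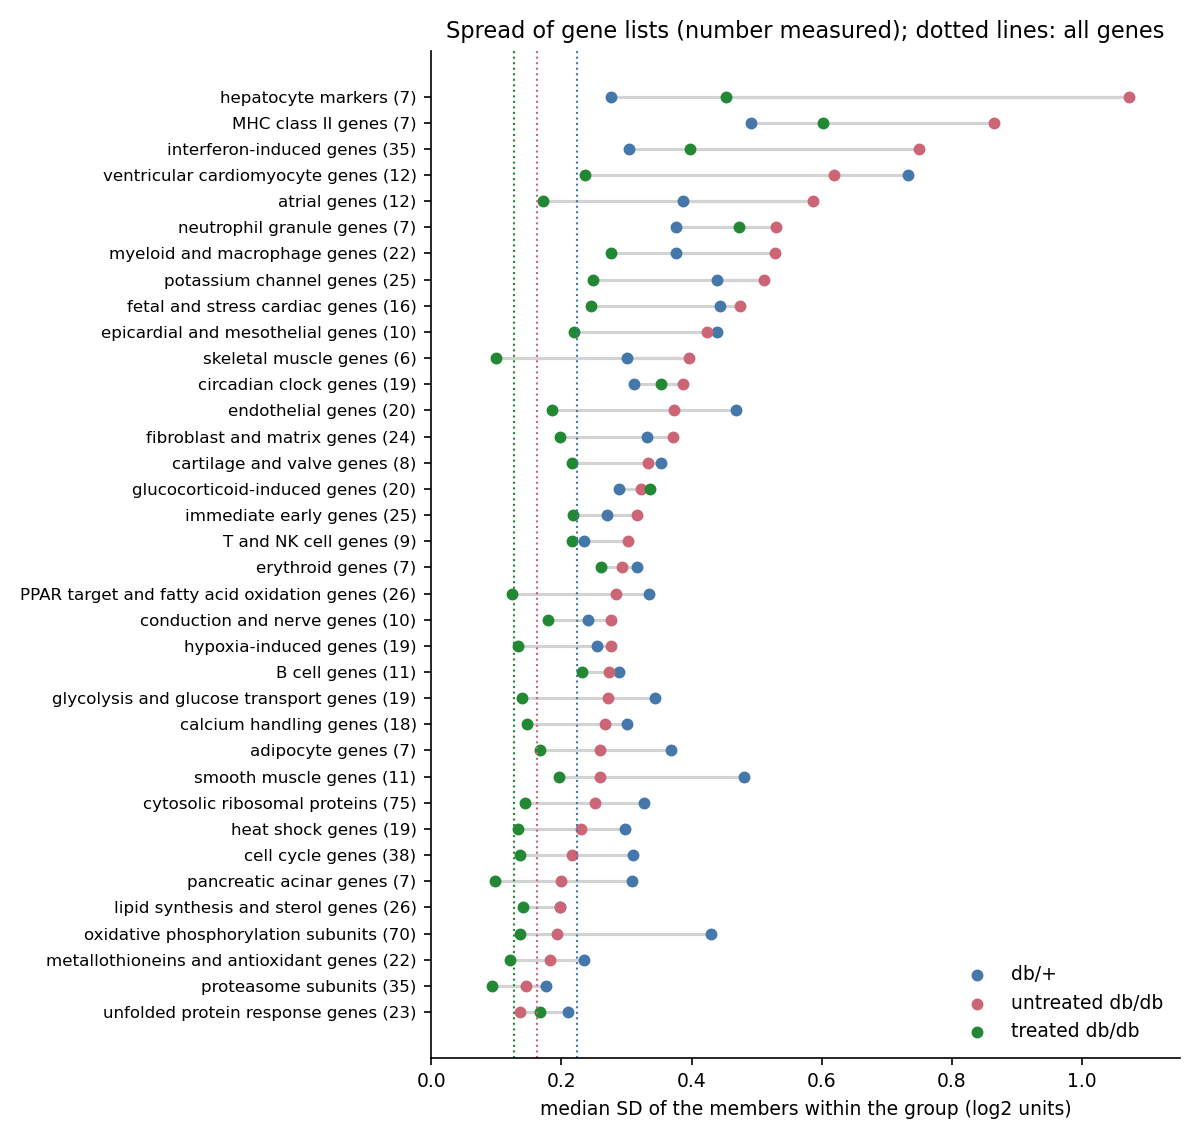
Median SD within the group (log2 units) of the members of each gene list with 5 or more measured genes, with the number measured in brackets and 1 point for each group. Dotted lines mark the median of all genes, 0.224 in db/+, 0.162 in untreated and 0.127 in treated db/db hearts. Hepatocyte, MHC class II and interferon-induced genes are widest in untreated hearts, which for MHC class II genes did not hold with the spike-in slope taken out, and ventricular and oxidative phosphorylation genes are widest in db/+ hearts.

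Among the 36 lists with 5 or more measured genes, proteasome subunits varied least, with a pooled median SD of 0.158, and hepatocyte markers most, with 0.713. Genes of the unfolded protein response were among the steadiest in untreated hearts (median SD 0.136), and of the 23 measured 2, Hspa5, the chaperone of the endoplasmic reticulum, and Syvn1, a ubiquitin ligase of the same compartment, passed with a smaller spread than in db/+ hearts (adjusted p = 0.0477 and 0.0448), beside 1.64% of all probes. Mylk, the kinase of smooth muscle myosin, and Flt1, a VEGF receptor, did so as well (adjusted p = 0.0477 and 0.0484). At the lower end, Galnt11, a glycosyltransferase, ranged from 0.74 to 0.90 over all 14 samples and Nif3l1 from -1.17 to -1.0.

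Myh3, the embryonic myosin heavy chain, had a larger spread in treated db/db hearts than in the db/+ group, as 3 of all 21143 probes did. It was 1.65, 1.22, -0.54 and -0.34 in the treated samples and 0.06 to 0.77 in db/+ hearts (adjusted p = 0.0476), and 0.26, -0.31, 0.36, 1.36 and 1.83 in untreated replicates 1 to 5. Untreated replicates 4 and 5 and treated replicates 1 and 2, which were the high ones, shared a slide. The difference turned to the other sign when deviations were taken within slides.

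Several of the largest SDs come from 1 array or from a reference near background. Of the 10 genes with the largest SD in treated hearts, 3 had a reference well above background on all arrays, and of those in db/+ and untreated hearts 6 each had. Kcnd2, a potassium channel, was 6.14 in untreated replicate 1 and 9.52 to 10.79 in the other untreated hearts, with its reference above background on 2 of 15 arrays, and its SD in untreated hearts was 1.79 as deposited and 0.57 after normexp correction and loess. Map10 (1.96 and 0.49), Synpo (1.69 and 0.37), Chl1 in treated hearts (1.72 and 0.33) and Gpc3 in treated hearts (1.84 and 0.67) did likewise. G3bp2, an RNA binding protein, was 3.25 in db/+ replicate 5 and -0.24 to -0.10 in the other db/+ hearts, and Mzf1 was 0.48 in db/+ replicate 3 and -3.30 to -2.73 in the others. For Igtp the SD in untreated hearts was 2.43 as deposited and 2.39 after normexp correction and loess, and for Apoc1 it was 2.05 and 1.90.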

How the data were processed

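RNA of 15 whole mouse hearts was measured on 2-colour Agilent arrays. The authors read the scans with Feature Extraction 9.5.1.1, and per the file headers its steps were background subtraction and a LOWESS dye normalization, which left an intensity in each channel. A log10 ratio, heart in Cy5 over reference in Cy3, was deposited by the authors, with the same log10 values in the series table. The ratios were converted to log2, spots of a probe were averaged, and control spots and spots flagged as non-uniform in either channel were left out. Per the file headers, the slope of spike-in controls, the dye factors and the software's error of a ratio were taken as deposited.

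The members and gene lists were chosen with earlier results of these data known. Probes had to be well above background in the heart channel on all 15 arrays, and spots and arrays limit the precision. Treated arrays 3 and 4 were averaged. Deviations from the group mean were multiplied by the square root of n over n minus 1. The root mean square over probes was compared by exact two-sided permutation tests, and the absolute deviations were tested for each probe with limma 3.58.1 in R 4.3.3, in 1 fit of 14 samples with Benjamini-Hochberg adjustment over 21143 probes. All adjusted p-values of single genes come from this limma fit. P-values measure the spread between these samples, which may be partly technical.

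A gene is given by its brightest probe. Named genes are the 10 with the largest SD in each group, the 10 with the largest and the 5 with the smallest pooled SD, up to 10 each way among the called probes of a comparison, up to 4 of each list and up to 6 of each cluster. Other members of a list or cluster were named after their values were seen. Some genes are not reported here. Clusters are average-linkage trees of 500 genes, cut at a correlation distance of 0.5, with at least 10 genes. Permutation p-values of correlations used 100000 permutations. Accessions of 23374 probes matched a RefSeq gene, and promoters come from RefSeq (GRCm38.p6). Python 3.11.15, numpy 2.4.6, scipy 1.17.1 and matplotlib 3.10.9 were used. Alternatives were other filters, normalizations, centres and fits, and each array left out in turn. Correction by the spike-in slope and leaving out db/+ replicates 3 and 4 together were added after the data were seen. The same replicate numbers in the 3 groups did not pair the samples.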

Additional observations from a re-analysis of the deposited data

Results flagged for a closer look

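Single samples that stood apart from the rest of their group were looked for in the deviations of the hearts, the means of the 9 clusters and the log2 ratios of the genes given for single hearts. Of 189 sets of 4 or 5 samples, 9 (4.76%) held a sample whose gap to its nearest neighbour exceeded Dixon's 95% limit for the range. That limit is passed in about 1 in 20 independent sets by chance. Many of these genes and clusters were picked for their spread in the same values and vary together, so that rate is no yardstick for them. The mean of the Slc12a1 cluster was -1.55 in untreated replicate 3 against 0.13 to 0.55 in the other untreated hearts. In untreated replicate 4, Igtp stood at 6.35 against 0.50 to 2.12 and Irgm1 at 3.40 against 0.20 to 0.96. In untreated replicate 5, Nr4a2 stood at 0.97 against -1.26 to -0.95. Ifi44 was -1.68 in treated replicate 1 against -1.18 to -1.11 in the other treated samples. G3bp2 was 3.25 in db/+ replicate 5 against -0.24 to -0.10, at 1 of its 3 probes, while the other 2 had SDs of 0.326 and 0.301 over the db/+ hearts. Mzf1 was 0.48 in db/+ replicate 3 against -3.30 to -2.73. Kcnd2 was 6.14 in untreated replicate 1 against 9.52 to 10.79, and Synpo was 8.41 in untreated replicate 2 against 4.29 to 5.06. A dimmer probe of each gene had an SD in untreated hearts of 0.666 for Kcnd2 and 0.0985 for Synpo. The causes were not tested.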

How the results depend on the processing

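The deviation of treated from untreated db/db hearts kept its sign in all alternatives run and lost its call in 1, normexp and loess (-0.0204). With each array left out in turn it ranged from -0.0696 to -0.0547 with exact permutation p from 0.00794 to 0.0286. Treated db/db against db/+ hearts ranged from -0.1 to -0.0528 without single arrays and lost its call with the spike-in slope taken out (-0.0500). Untreated db/db against db/+ hearts passed with normexp and loess (-0.264) and with the median over probes of the absolute deviation (-0.0483). With normexp and loess the large db/+ deviations were those of replicates 1 to 4, which shared a slide. The difference of untreated db/db to db/+ hearts had the other sign without db/+ replicate 3 (0.00927) and without db/+ replicates 3 and 4 (0.0272). It was -0.0383 to 0.00927 over the single arrays left out.

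The number of probes called depended on nearly every choice. Between untreated db/db and db/+ hearts (390 in the report) it was 0 with deviations from the group median, squared deviations, the replicate block, a fit of only these 2 groups, the spike-in slope taken out, or without db/+ replicates 3 and 4, where limma gave 872, 3166, 3896, 3254, 3314 and 2573 probes at an unadjusted p under 0.05. It was 6857 with normexp and loess, 64 in the heart channel alone, 653 with treated arrays 3 and 4 as 2 samples, 2142 with deviations within slides, 908 with trended and robust eBayes, 1155 at an adjusted p under 0.10, and 115 with ratios divided by the spike-in slope. Without single arrays it ranged from 5 to 1386.

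Between treated db/db and db/+ hearts (98 in the report) the count was 0 under the same 6 settings and with ratios divided by the spike-in slope, where limma gave 721, 2825, 4077, 3650, 3220, 2424 and 3933 probes at an unadjusted p under 0.05. It was 158 with the reference also above background, 335 without a filter on dim probes, 423 among the brighter probes, 22 with flagged spots kept, 6181 with normexp and loess, 34 in the heart channel alone, 276 with scaled ratios, 855 with treated arrays 3 and 4 as 2 samples, 2594 within slides, 162 with 1 probe a gene, 470 with trended and robust eBayes and 875 at an adjusted p under 0.10, and 0 to 1288 without single arrays. For the treated against the untreated db/db group (0 in the report) it was 113 without the filter, 1 in the heart channel alone, 27 within slides, 1 with squared deviations and 0 to 19 without single arrays, and 1620 probes had an unadjusted p under 0.05 in the limma fit of the report. Within slides a pair of samples has equal deviations, which by construction narrows their spread and adds calls.

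The median log2 ratio of SDs between untreated db/db and db/+ hearts was -0.19 without the filter on dim probes, -0.49 among brighter probes, -0.99 with normexp and loess, -0.22 in the heart channel alone, -0.25 with the spike-in slope taken out, and 0.22 without db/+ replicates 3 and 4, with -0.42 to -0.11 without single arrays. For the treated against the untreated db/db group it was -0.29 without the filter, -0.11 with normexp and loess, -0.54 within slides, -0.42 divided by the spike-in slope, -0.25 with that slope taken out, and -0.44 to -0.28 without single arrays. Between treated db/db and db/+ hearts it was -0.52, -0.88, -1.16 and -0.57 under the first 4 of the settings named for untreated db/db hearts, -0.94 within slides, -0.77 divided by the slope, -0.53 with it taken out, -0.12 without db/+ replicates 3 and 4, and -0.78 to -0.45 without single arrays.

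Of the 31 calls of genes named for the size of their difference, none remained without db/+ replicate 3 or without db/+ replicate 4, and of 15 further calls of list or cluster members 0 and 2 remained. The difference in absolute deviation between untreated db/db and db/+ hearts changed sign with normexp and loess for 1500009L16Rik (-0.29), 1700019D03Rik (-0.0802), Abhd3 (-0.43), Clec4g (-0.11), Cry1 (-0.0641), Lin7a (-0.41) and Myo5a (-0.71), for Lin7a in the heart channel alone (-0.11), and for Katnbl1 without db/+ replicates 3 and 4 (0.0108). Between treated db/db and db/+ hearts it did so for Myh3 within slides (-0.0326) and for Zcchc14 without db/+ replicates 3 and 4 (0.000988). Replicate numbers are shared by the groups but did not pair the samples: the correlations of same-numbered samples ranged from -0.305 to 0.112, and the replicate block left 0 calls in each comparison. The causes of these dependences were not tested.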
